A study of Rattus norvegicus with 4 samples.

Results

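D2 medium spiny neurons are the GABAergic projection neurons of the striatum that carry the dopamine D2 receptor, Drd2. In the nucleus accumbens, the ventral striatal region examined here, they intermingle with spiny neurons that carry the D1 receptor, Drd1. The D2 receptor couples to Gi and lowers cyclic AMP, whereas the adenosine receptor encoded by Adora2a and the orphan receptor Gpr6 raise it in the same cells, and the neurons release the opioid peptide enkephalin, made from Penk. Cocaine blocks reuptake of dopamine and so raises dopamine at both receptors.

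The D2 neurons were chosen by a rule on raw UMIs (unique molecular identifiers, each counting 1 captured transcript). A nucleus with 200 or more genes was taken when Drd2, Adora2a and Penk together had 5 or more UMIs with at least 1 of Drd2, Drd1 and Ebf1 together had at most 1, the spiny neuron phosphodiesterase Pde10a had 5 or more and the glutamate receptor gene Grm8 had at most 4. The rule found 3213 of 26228 nuclei. Single-nucleus RNA-seq was run on 4 libraries from Sprague-Dawley rats aged 90 to 120 days, and each library was a pool of 4 rats of 1 sex. The saline female, saline male, cocaine female and cocaine male rats received physiological saline or cocaine at 20 mg per kg intraperitoneally once a day for 7 days, with tissue punches centred on the accumbens core taken 1 hour after the last injection. Each treatment therefore had 2 libraries, 1 per sex, and the pooled rats within a library cannot be told apart. Nuclei were purified by flow sorting before barcoding. Where 4 values follow each other below, they are in library order: female saline, female cocaine, male saline, male cocaine.

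The libraries yielded 643 D2 nuclei in saline females, 800 in cocaine females, 849 in saline males and 921 in cocaine males. These were 10.1%, 11.0%, 13.7% and 14.5% of the nuclei in each library, with exact (Clopper-Pearson) 95% intervals of 9.36 to 10.9, 10.3 to 11.8, 12.8 to 14.5 and 13.6 to 15.3, which cover counting error only. Median depth per D2 nucleus was 9956, 7814, 7407 and 6737 UMIs. Males were above females in share and did not overlap with them (14.1% ± 0.559 against 10.6% ± 0.651, SD, n = 2 each; exact two-sided permutation p = 0.333, the smallest this design allows). Cocaine and saline overlapped (12.7% ± 2.43 against 11.9% ± 2.52, SD, n = 2 each; exact two-sided permutation p = 0.667). There were 3.31 ± 0.239 D2 nuclei per D1 nucleus, the latter taken by the mirrored rule given below, in cocaine and 2.66 ± 0.42 in saline (SD, n = 2 each), with the libraries not overlapping (exact two-sided permutation p = 0.333). Median depth per D1 nucleus was 11210, 8881, 8405 and 7862 UMIs. Both counts rest on raw UMI limits, which move with depth, so the ratio does not give cell numbers. Summed over D2 nuclei, each library held 6654059 to 6818716 UMIs. Between 10 and 18 barcodes were shared by any pair of libraries, and none of them was a D2 nucleus in both.

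With the other conditions met, 22, 59, 42 and 41 nuclei had a marker sum of exactly 5, and 21, 53, 49 and 37 had a sum of 4 and were left out. The median D2 nucleus had a marker sum of 10.0 to 14.0 UMIs and 17.0 to 24.0 UMIs of Pde10a.

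The upstream sequences of 4 genes are shown because the results below turn on them or on a gene of the same family: Ell2, Nts and Calcr passed the test between cocaine and saline, and Nr4a1 is the relative of Nr4a3, the gene with the smallest adjusted p. Each is the 250 bases before the gene start from RefSeq on the GRCr8 build, written 5′ to 3′ on the gene's strand. Capitals mark matches, on either strand, to the cyclic AMP response element TGACGTCA, the shorter TGACG within it, the AP-1 element TGACTCA or the EGR element GCGTGGG.
Ell2 (chr2:6921602-6921851, + strand): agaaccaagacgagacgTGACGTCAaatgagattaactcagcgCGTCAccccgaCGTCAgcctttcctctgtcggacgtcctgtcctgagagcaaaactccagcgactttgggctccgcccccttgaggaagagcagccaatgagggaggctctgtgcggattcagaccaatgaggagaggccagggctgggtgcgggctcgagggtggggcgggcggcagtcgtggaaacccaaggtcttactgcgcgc
Nts (chr7:39460889-39461138, - strand): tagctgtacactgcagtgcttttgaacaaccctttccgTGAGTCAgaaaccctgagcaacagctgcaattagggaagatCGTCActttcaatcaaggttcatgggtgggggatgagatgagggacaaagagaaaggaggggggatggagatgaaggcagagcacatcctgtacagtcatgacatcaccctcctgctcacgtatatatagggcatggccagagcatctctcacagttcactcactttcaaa
Calcr (chr4:32691076-32691325, - strand): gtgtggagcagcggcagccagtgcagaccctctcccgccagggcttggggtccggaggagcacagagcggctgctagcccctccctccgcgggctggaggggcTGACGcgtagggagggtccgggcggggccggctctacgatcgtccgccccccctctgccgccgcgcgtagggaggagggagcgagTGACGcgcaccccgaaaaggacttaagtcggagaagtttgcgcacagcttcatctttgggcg
Nr4a1 (chr7:134259888-134260137, + strand): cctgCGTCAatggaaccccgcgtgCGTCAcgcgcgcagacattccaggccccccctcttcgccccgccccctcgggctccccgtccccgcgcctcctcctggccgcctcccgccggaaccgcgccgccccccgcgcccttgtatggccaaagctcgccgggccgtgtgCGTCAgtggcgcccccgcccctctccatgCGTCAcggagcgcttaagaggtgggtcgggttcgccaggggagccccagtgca
Ell2 carried 1 complete cyclic AMP response element, whose palindrome holds 2 of the 4 matches to TGACG in this window. Nts had 1 AP-1 match and 1 of TGACG, Calcr had 2 of TGACG and Nr4a1 had 4. Among 27457 RefSeq promoters, 1.7% held the complete element in the same window, 19% TGACG, 3.98% AP-1 and 3.88% EGR. Of the 17 genes named in the cocaine comparison 14 were matched by symbol, and 1 held the complete element, 4 TGACG, 2 AP-1 and 0 EGR. Of 38 immediate-early genes 29 were matched, and 7 held the complete element, 16 TGACG, 0 AP-1 and 5 EGR. These are letter matches, and binding was not measured.

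The identity of the nuclei followed the label. Values here are CPM, UMIs of a gene per 1000000 UMIs, summed per library over D2 nuclei, over 1079 D1 nuclei taken by the mirrored rule (Drd1 and Ebf1 together at 5 or more with at least 1 of Drd1, at most 1 UMI of Drd2, Adora2a and Penk together, and the same limits on Pde10a and Grm8) and over 6947 oligodendrocyte nuclei. Because the rule chose the nuclei on D2 against D1 genes, this contrast is a description with no test. Drd2 stood at 875, 766, 905 and 811 CPM in D2 nuclei, against 0 to 0.914 CPM in D1 nuclei. Adora2a was at 200 to 233 CPM against 0.412 to 1.37 CPM. Penk ranged more widely, at 343, 372, 419 and 613 CPM, against 5.67 to 11.9 CPM in D1 nuclei.

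**Figure D1:**
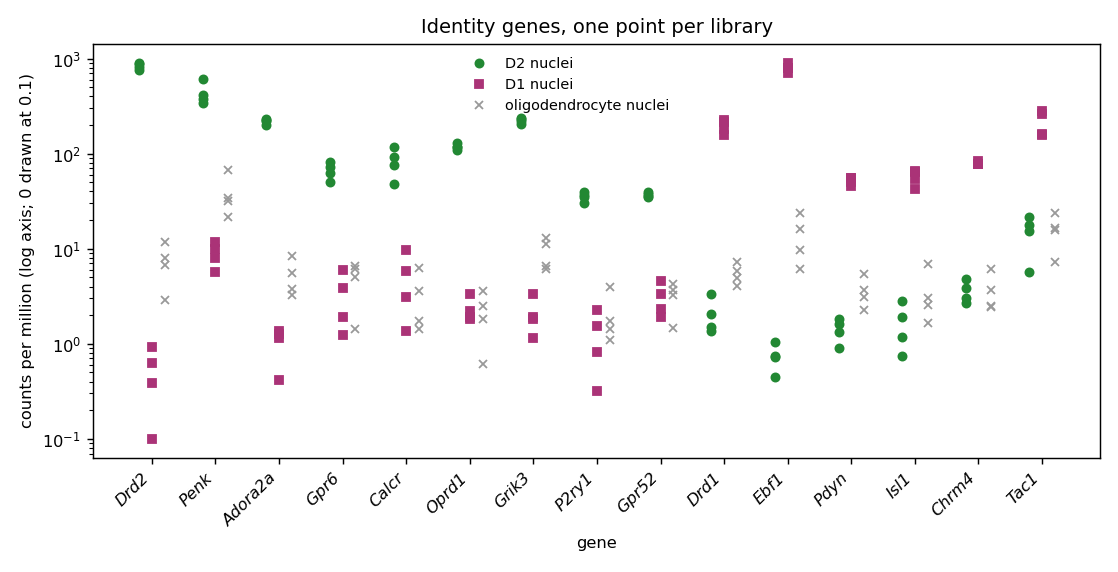
CPM (log axis) of 15 identity genes in D2, D1 and oligodendrocyte nuclei, with 1 point per library. The D2 genes from Drd2 to Gpr52 sit above both other populations in all 4 libraries, and the D1 genes from Drd1 to Tac1 sit low in D2 nuclei.

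Markers that the rule did not read also separated the populations. Oprd1, the delta opioid receptor on which enkephalin acts, was at 129, 111, 119 and 119 CPM in D2 nuclei and at 1.83 to 3.30 CPM in D1 nuclei. Gpr6 was at 51.0, 62.3, 73.2 and 82.1 CPM against 1.24 to 5.94 CPM. Calcr, the calcitonin receptor, was at 117, 93.4, 76.3 and 48.1 CPM against 1.37 to 9.77 CPM. All of these exceeded their D1 level in every library, and the highest D2 library was 117 against a lowest of 48.1 CPM for Calcr but 129 against 111 CPM for Oprd1.

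Among the 5722 genes at 20 CPM or more in every D2 sum, the widest gaps from D1 nuclei outside the rule genes included several receptor genes. Grik3, the GluK3 subunit, was 111 times its D1 level (207 to 239 CPM against 1.15 to 3.30 CPM). The purinergic receptor P2ry1 was 30.5 times higher and the muscarinic receptor Chrm3 17.9 times higher. Gpr52, an orphan receptor that raises cyclic AMP, was 12.8 times higher, and the serotonin receptor Htr4 7.51 times higher. The soluble guanylate cyclase subunit Gucy1a1, which makes cyclic GMP on binding nitric oxide, was 7.42 times higher. Unc5d, a netrin receptor, was 23.2 times higher and Thsd7b 23.3 times higher. Thsd7b was uneven among D2 nuclei, at 1622 CPM in sub-cluster 4, described below, and 106 CPM in the others, against 10.0 CPM in D1 nuclei. In the opposite direction the dynorphin precursor Pdyn was 36.2 times higher in D1 than in D2 nuclei, the transcription factor Isl1 33.2 times, the muscarinic receptor Chrm4 22.0 times and the substance P precursor Tac1 13.8 times.

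Glial and interneuron marker sums were low in D2 nuclei. The marker sum of eccentric spiny neurons, a spiny class set apart from the D1 and D2 types, was higher, but below that of D1 nuclei. The 7 oligodendrocyte markers summed to 191 to 271 CPM in D2 nuclei and to 18616 to 22917 CPM in oligodendrocyte nuclei. The 7 astrocyte markers summed to 48.2, 33.7, 103 and 69.8 CPM, the 7 microglial markers to 20.3 to 33.9 CPM and the 9 listed interneuron markers to 8.12 to 20.1 CPM. The 6 listed eccentric markers (Grm8, Chst9, Casz1, Otof, Tshz1 and Foxp2) summed to 324, 294, 363 and 375 CPM, the males above the females. In D1 nuclei they summed to 983, 960, 1137 and 1115 CPM. Foxp2 alone was at 141 to 235 CPM in D2 nuclei and at 883 to 1076 CPM in D1 nuclei, and the rule limits Grm8 in both. No defining marker of these classes was at 0, and of the 4 listed vascular markers Rgs5 and Slc6a13 were.

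D2 nuclei were not uniform. After each nucleus was thinned to 3000 UMIs, Kcnip4, a subunit of A-type potassium channels, had the largest ratio of variance to mean among 4167 genes in every library, at 9.59, 10.3, 9.69 and 8.44 against a median gene at 1.06. The protocadherin Pcdh9 followed at 7.08 to 8.02, the acid-sensing channel Asic2 at 5.57 to 6.51 and the cyclic AMP phosphodiesterase Pde4b at 4.27 to 5.12. Galntl6, Fam155a, Sgcz and Phactr1 were also in the leading group in all 4 libraries. The myelin gene Mbp, an oligodendrocyte marker, ranked among the first 15 as well, at 3.32 to 7.46. The ratio was not adjusted for a gene's level, and genes were ranked from a mean of 0.1 UMIs per thinned nucleus. Kcnip4 averaged 23.9 to 28.8 UMIs, Phactr1 32.3 to 33.7 and Asic2 2.38 to 3.36.

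Leiden clustering of the D2 nuclei, made without the rule genes and the immediate-early genes, gave 12 sub-clusters, which are called by number and leading genes. Sub-cluster 0 (26.7% of D2 nuclei) was led by Pde1a and Calcr, sub-cluster 1 (25.7%) by Kif28p and Ust, sub-cluster 2 (13.8%) by Nts and Nr4a3, sub-cluster 3 (11.1%) by Npas3 and Pcdh15, sub-cluster 4 (8.37%) by Casz1 and Htr7, sub-cluster 5 (5.07%) by Frem2 and Hs6st3 and sub-cluster 7 (2.49%) by Calcr and Pde1c. Sub-clusters 6, 8, 9, 10 and 11 carried markers of oligodendrocytes, interneurons, astrocytes, microglia and oligodendrocyte precursors at 8 or more times the level of other D2 nuclei. They held 221 nuclei, 6.88% of all and 6.69% to 7.07% of each library, and the doublet caller Scrublet marked 90.1% of them against 1.20% of the rest.

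**Figure D2:**
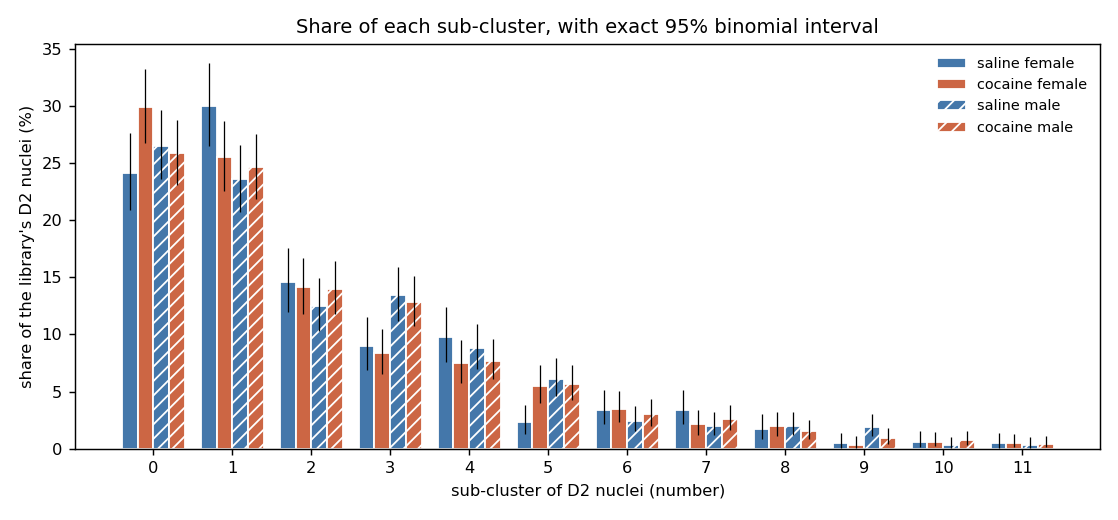
Share of each library's D2 nuclei in each of 12 sub-clusters, as bars with exact 95% binomial intervals; colour gives treatment and hatching marks males. Sub-clusters 0 and 1 are the most populous, sub-cluster 5 is low in saline females and sub-cluster 3 is higher in both male libraries.

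Sub-cluster 2 made up 14.6%, 14.1%, 12.5% and 14.0% of D2 nuclei, and sub-cluster 4 made up 9.80%, 7.50%, 8.83% and 7.71%. Sub-cluster 5 was at 2.33% in saline females and at 5.5%, 6.13% and 5.65% in the others. The astrocyte sub-cluster 9 was at 0.467% and 0.375% in the female libraries and at 1.89% and 0.977% in saline and cocaine males.

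Identity genes differed between these sub-clusters by gene. Drd2 was at 728 to 1022 CPM in the 7 sub-clusters without raised glial, interneuron or precursor markers. Penk, by contrast, was at 55.3 CPM in sub-cluster 4 and at 284 to 680 CPM in the other 6. Oprd1 was likewise low in sub-cluster 4 (15.5 CPM) and sub-cluster 7 (25.5 CPM) against 113 to 193 CPM elsewhere, while Adora2a stood at 221 CPM in sub-cluster 4 and at 79.7 CPM in sub-cluster 7. Tac1, a D1 gene, reached 103 CPM in sub-cluster 4 and 3.19 to 7.98 CPM in the others, and Drd1 stayed at 1.08 to 3.19 CPM in all 7, as the rule requires. Sub-cluster 4 was also led by an eccentric marker, Casz1, at 254 against 3.89 CPM in the other D2 nuclei, and its sum of the 6 eccentric markers was 603 against 315 CPM. Its leading genes, low Penk and Oprd1 and high Tac1 thus go against the D2 name, although it has Drd2 and Adora2a, so it is called by number. Sub-cluster 5 had the eccentric markers Otof at 120 against 24.8, Tshz1 at 81.5 against 38.8 and the rule gene Grm8 at 150 against 42.2 CPM. Casz1 (14.5 against 25.5 CPM), Foxp2 (50.6 against 202 CPM) and Chst9 (0.66 against 1.06 CPM) were lower there. Its sum was 417 against 334 CPM. Sub-clusters 2 and 3 had higher sums, 439 and 471 CPM, with no eccentric marker among their leading genes. The mu opioid receptor Oprm1 was at 129 CPM in sub-cluster 7 and 71.8 CPM in sub-cluster 2, against 7.23 to 22.0 CPM elsewhere.

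The first comparison asked which genes differ in D2 neurons between cocaine and saline 1 hour after the last of 7 injections. The immediate-early gene Nr4a3, an orphan nuclear receptor induced by neuronal activity and cyclic AMP, rose in both sexes. With it rose the transcription elongation factor Ell2, the neuropeptide precursor Nts, the receptor tyrosine phosphatase Ptpro and the interferon-inducible Oasl2. The calcitonin receptor Calcr, the A-type potassium channel subunit Kcnip1, the plasma membrane calcium pump Atp2b4, the G protein subunit Gng2 and Zmat4 fell. Of 12771 genes tested by edgeR's quasi-likelihood test with sex as a term and Benjamini-Hochberg adjustment at 0.05, 11 were higher (0.0861%) and 9 lower (0.0705%) in cocaine.

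The number called depended on the fit. DESeq2 called 0 genes (89 at an unadjusted p under 0.05, against 1175 with edgeR), and edgeR without the sex term called 0 (591 at an unadjusted p under 0.05). With the 5 sub-clusters of other classes left out, an alternative chosen after seeing the data, 111 of 12375 genes were called (0.897%), 17 of the 20 among them. Without sub-clusters 4 and 5, which had eccentric markers among their leading genes and held 432 nuclei, 99 of 12513 genes were called (0.791%), 19 of the 20 among them. This alternative too was chosen after seeing the data.

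Nr4a3 had 32.0 CPM in saline females, 69.3 in cocaine females, 21.3 in saline males and 46.8 in cocaine males, from 213, 468, 143 and 319 UMIs. Both cocaine libraries were above both saline libraries. The log2 fold change was 1.09 (SE 0.11; edgeR quasi-likelihood adjusted p = 0.000193), with 1.11 in females and 1.13 in males. DESeq2 gave 1.09 with an adjusted p of 0.0545, edgeR without the sex term gave 1.09 with 0.975, and leaving out either cocaine library, with the sex term dropped, gave 0.77 to 1.36 with edgeR adjusted p of 0.936 and 0.999. Without sub-clusters 4 and 5 it was 1.06 (edgeR adjusted p = 8.65e-10). After thinning to 3000 UMIs, Nr4a3 was found in 5.14%, 5.88%, 3.30% and 5.36% of D2 nuclei, with 1.91, 3.92, 1.96 and 2.63 UMIs per nucleus that had any. Both quantities were higher with cocaine within each sex, and 0 or 1 of 129 to 297 oligodendrocyte nuclei per library, thinned alike, had a UMI.

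**Figure D3:**
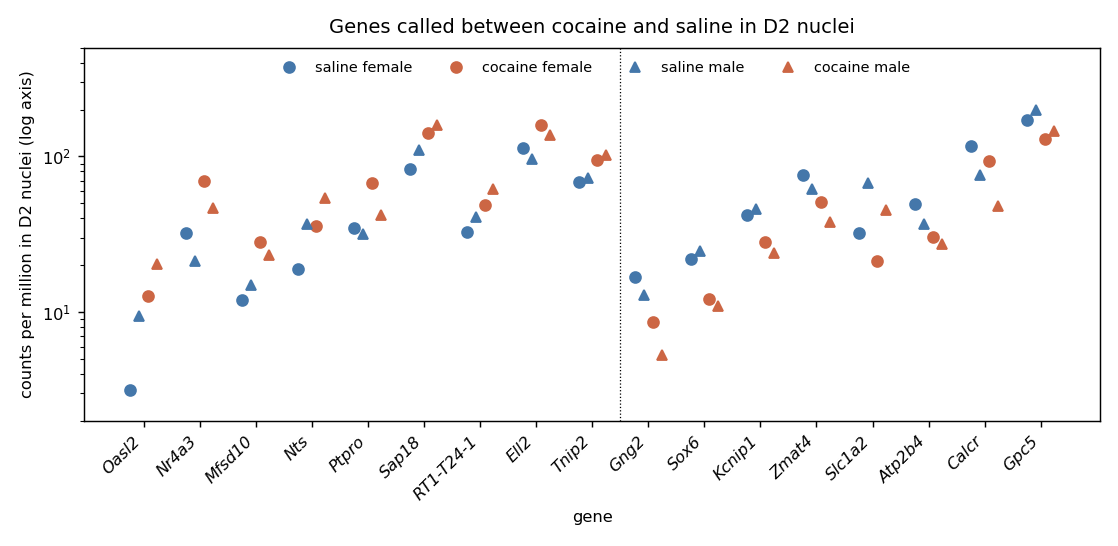
CPM in D2 nuclei (log axis) of the 17 named genes called between cocaine and saline, 1 point per library; circles are females and triangles males, blue is saline and orange cocaine. Genes left of the dotted line were higher in cocaine, and within each sex the cocaine point lies above the saline point for these 9 and below it for the 8 to the right.

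Ell2, which keeps RNA polymerase II elongating, was at 114 and 96.3 CPM in saline females and males and at 159 and 137 CPM in cocaine. The groups did not overlap, and the log2 fold change was 0.47 (SE 0.075; edgeR adjusted p = 0.0144). Ptpro had 34.6 and 31.6 CPM in saline and 67.2 and 41.9 CPM in cocaine females and males, a log2 fold change of 0.67 (SE 0.13; edgeR adjusted p = 0.0419) that was larger in females (0.96) than in males (0.41). That difference between the sexes was not tested, since the design has 1 library per sex and treatment. Leaving out 1 library at a time, with the sex term dropped, gave Ptpro log2 fold changes of 0.30, without the female cocaine library, to 1.00.

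Nts encodes neurotensin, a peptide that modulates dopamine transmission in the accumbens. It was at 18.8 and 36.8 CPM in saline females and males and at 35.7 and 54.0 CPM in cocaine. Within each sex cocaine was higher, but the cocaine female library lay below the saline male one, so that the groups overlapped. The log2 fold change was 0.67 (SE 0.12; edgeR adjusted p = 0.0327). It became -0.02 (edgeR adjusted p = 0.980) when the sub-clusters of other classes were left out and each remaining sub-cluster was drawn in equal numbers from every library. It was 1.96 (edgeR adjusted p = 0.000167) at a marker sum of 10 and 0.33 (edgeR adjusted p = 0.613) in thinned nuclei. With 1 library and the sex term left out it ran from 0.24, without the female saline library, to 1.23, without the male saline library. Sub-cluster 2 held Nts at 22.6, 186, 193 and 289 CPM, and saline females alone were low there.

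Oasl2, made in the interferon response, was scarce in saline, at 3.16 and 9.39 CPM in females and males, and reached 12.7 and 20.2 CPM in cocaine (log2 fold change 1.39, SE 0.22; edgeR adjusted p = 0.0144). With the sex term dropped it was 0.77 (edgeR adjusted p = 0.146) without the female saline library and 2.35 (edgeR adjusted p = 1.8e-10) without the male saline one. In thinned D2 nuclei 0.467%, 3.5%, 3.30% and 5.57% had a UMI of Oasl2, against 0.673%, 2.13%, 1.99% and 1.55% of oligodendrocyte nuclei thinned alike. The female saline shares rest on 3 D2 and 2 oligodendrocyte nuclei, and whether they are background was not tested. Of 13 interferon-response genes only 3 had enough counts to be tested, and 1 rose. Sap18, Mfsd10, RT1-T24-1 and Tnip2 were also higher in both cocaine libraries, with log2 fold changes of 0.62, 0.90, 0.56 and 0.44. Sap18 is listed under 2 gene identifiers in the files, and the one called is ENSRNOG00000064694, so reads may be split between copies. The 4 genes were likewise higher within each sex in oligodendrocyte nuclei, where Sap18 went from 80.0 to 110 CPM in females and from 102 to 122 CPM in males and Mfsd10 from 25.2 to 48.2 and from 35.6 to 51.1 CPM. Nr4a3 was at 0.410 to 1.81 CPM in oligodendrocyte nuclei.

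Calcr fell from 117 to 93.4 CPM in females and from 76.3 to 48.1 CPM in males. Saline males were below cocaine females, so the groups overlapped across sexes. The log2 fold change was -0.51 (SE 0.096; edgeR adjusted p = 0.0419), with -0.33 in females and -0.67 in males. Leaving out 1 library at a time, with the sex term dropped, moved it from -1.05 to -0.07. In sub-cluster 7, where Calcr is highest, it stood at 1101 and 1127 CPM in saline and cocaine females and at 519 and 372 CPM in males. In sub-cluster 0 it stood at 224 and 196 CPM in females and 172 and 102 CPM in males. Since Calcr led both sub-clusters, these are descriptions with no test.

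Kcnip1, a calcium-binding partner of Kv4 channels, was at 41.8 and 46.1 CPM in saline females and males and at 28.3 and 23.9 CPM in cocaine, without overlap (log2 fold change -0.78, SE 0.12; edgeR adjusted p = 0.0144). Atp2b4 was at 49.7 and 36.7 CPM in saline and 30.3 and 27.4 CPM in cocaine (log2 fold change -0.60, SE 0.11; edgeR adjusted p = 0.0419). Both genes had their highest level in sub-cluster 4, where Kcnip1 averaged 227 CPM and Atp2b4 226 CPM, and that sub-cluster held 9.80% and 7.50% of saline and cocaine female and 8.83% and 7.71% of male D2 nuclei. Within sub-cluster 4 Kcnip1 gave -0.33 (edgeR adjusted p = 0.654) and Atp2b4 -0.42 (edgeR adjusted p = 0.441). With sub-clusters in equal numbers they gave -0.56 (edgeR adjusted p = 0.0373) and -0.59 (edgeR adjusted p = 0.00996). Without sub-clusters 4 and 5 Kcnip1 gave -0.94 (edgeR adjusted p = 0.000109), and Atp2b4 no longer passed (-0.49; edgeR adjusted p = 0.166). In thinned nuclei neither passed (edgeR adjusted p of 0.145 and 0.283). Zmat4, a zinc finger gene, went from 76.3 to 51.1 CPM in females and from 61.7 to 38.0 CPM in males (log2 fold change -0.67, edgeR adjusted p = 0.0101). Gng2 was low throughout, at 16.7 and 13.0 CPM in saline and 8.58 and 5.28 CPM in cocaine.

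Sox6, Gpc5 and Slc1a2 were also called lower, and their calls depended on nuclei with markers of other cell classes. Slc1a2, the glial glutamate transporter and an astrocyte marker, was at 32.3 and 68.0 CPM in saline females and males and at 21.2 and 45.02 CPM in cocaine, beside astrocyte marker sums of 48.2, 103, 33.7 and 69.8 CPM in the same order. Without the 5 sub-clusters of other classes the log2 fold changes of Sox6, Gpc5 and Slc1a2 went from -1.04, -0.46 and -0.63 to 0.36, -0.03 and -0.44, and none of the 3 passed the edgeR test (adjusted p of 0.877, 0.964 and 0.150).

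The immediate-early list, genes switched on within minutes of neuronal activity, was chosen with earlier results known. Of 38 genes 27 could be tested, 20 had a positive log2 fold change, and 1, Nr4a3, passed. The median log2 fold change was 0.30, beside 0.003 over all genes tested, and at an unadjusted p under 0.05 9 were higher (33.3%) and 0 lower. Over all genes tested, 5.09% were higher and 4.11% lower at that p, and 50.9% had a positive log2 fold change, against 74.1% in the list. Junb, a subunit of AP-1, was at 34.0 and 31.3 CPM in saline and 44.1 and 43.6 CPM in cocaine, but did not pass (log2 fold change 0.40, SE 0.11; edgeR adjusted p = 0.223). Nr4a1 gave 0.40 (adjusted p = 0.244), Fos 0.49 (adjusted p = 0.541) and Egr1 -0.03 (adjusted p = 0.982) in the same edgeR fit, and Arc, which marks active synapses, gave -0.03. Egr4 was at 10.8 and 14.5 CPM in saline and 27.7 and 16.4 CPM in cocaine females and males, a log2 ratio of 1.35 in females and 0.18 in males. It did not pass among all D2 nuclei (edgeR adjusted p = 0.229) and did so without the sub-clusters of other classes (0.86, edgeR adjusted p = 0.000157), as did Btg2.

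The share of nuclei with at least 1 of these transcripts was lower with cocaine in females and higher in males, with overlapping intervals within each sex. After thinning to 3000 UMIs, 20.4%, 18.1%, 17.6% and 21.8% of D2 nuclei had a UMI of at least 1 of 11 immediate-early genes (Fos, Fosb, Junb, Egr1, Egr2, Egr4, Nr4a1, Nr4a3, Arc, Npas4 and Btg2). Exact 95% intervals, which cover counting error only, were 17.35 to 23.73, 15.51 to 20.97, 15.05 to 20.28 and 19.12 to 24.57. The unthinned shares were 38.6%, 34.3%, 31.9% and 35.6%. Oligodendrocyte nuclei thinned alike gave 3.37%, 5.85%, 2.65% and 6.98%. These were the 297, 188, 151 and 129 that reached 3000 UMIs, and 1793, 1793, 1207 and 1389 shallower ones were left out. Of the D2 nuclei 1, 0, 0 and 6 were left out. Nuclei with 2 or more of the 11 genes made up 5.61%, 6.75%, 5.42% and 7.10% of thinned D2 nuclei, higher with cocaine in each sex. Those with 3 or more made up 2.65%, 4.38%, 3.06% and 3.83%, also higher with cocaine in each sex. Unthinned, nuclei with 3 or more made up 8.1%, 7.6%, 5.2% and 7.9%, lower with cocaine in females and higher in males.

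Of 26 tested members of the cyclic AMP list 0 passed (1 lower at an unadjusted p under 0.05), and their median log2 fold change was -0.04. Pde4b, which degrades cyclic AMP, gave -0.25 (edgeR adjusted p = 0.226), and without the sub-clusters of other classes it passed at -0.27 (edgeR adjusted p = 0.0223). Of the 11 tested D2 identity genes 1 fell, Calcr, and 9 had a negative log2 fold change, with a median of -0.17. A positive change was found in 18.2% of them, beside 50.9% of all genes tested. At an unadjusted edgeR p under 0.05, 4 (36.4%) were lower, beside 4.11% of all genes tested. Drd2 itself gave -0.21 and Penk 0.31, a description since their UMIs chose the nuclei.

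Ion channel and receptor lists gave few calls. In the potassium channel list Kcnip1 fell and 27 other tested genes did not pass, and 5 (17.9%) were lower at an unadjusted p under 0.05, beside 4.11% of all genes tested. Of 14 ionotropic glutamate receptor genes 0 passed, with a median of -0.09 and 4 (28.6%) lower at an unadjusted p under 0.05. Of 24 acid-sensing, sodium and calcium channel genes 0 passed, with a median of -0.09 and 20.8% lower at that p. Asic2 did not pass, at 1052 and 1134 CPM in saline females and males and 899 and 825 CPM in cocaine (edgeR adjusted p = 0.0565). It passed without the sub-clusters of other classes at -0.41 (edgeR adjusted p = 1.16e-05). Of 12 GABA-A, 5 metabotropic glutamate and 9 endocannabinoid genes 0 passed. Of 15 tested neuropeptide and receptor genes Nts rose and Calcr fell.

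Nr4a3 was higher with cocaine within each sex in sub-clusters 2 and 4. The sub-clusters were made without Nr4a3 and the other listed immediate-early genes. Nts, which was called in the cocaine comparison and led sub-cluster 2, was not left out. In sub-cluster 4 Nr4a3 was at 63.8, 195, 44.1 and 173 CPM, and in sub-cluster 2 at 119, 345, 75.6 and 193 CPM. In sub-clusters 0 and 3 it stayed at 1.18 to 15.8 CPM, and in sub-cluster 1 at 5.59 to 16.4 CPM. Fits within sub-clusters were added after seeing the data. Nr4a3 passed in sub-cluster 4 (log2 fold change 1.74, SE 0.22; edgeR adjusted p = 2.49e-11) and sub-cluster 2 (1.44, SE 0.14; edgeR adjusted p = 0.00558), and in sub-cluster 1 it gave -0.14 (edgeR adjusted p = 0.975). It had too few counts for a fit in sub-clusters 0 and 3. Differences between sub-clusters were not tested.

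**Figure D4:**
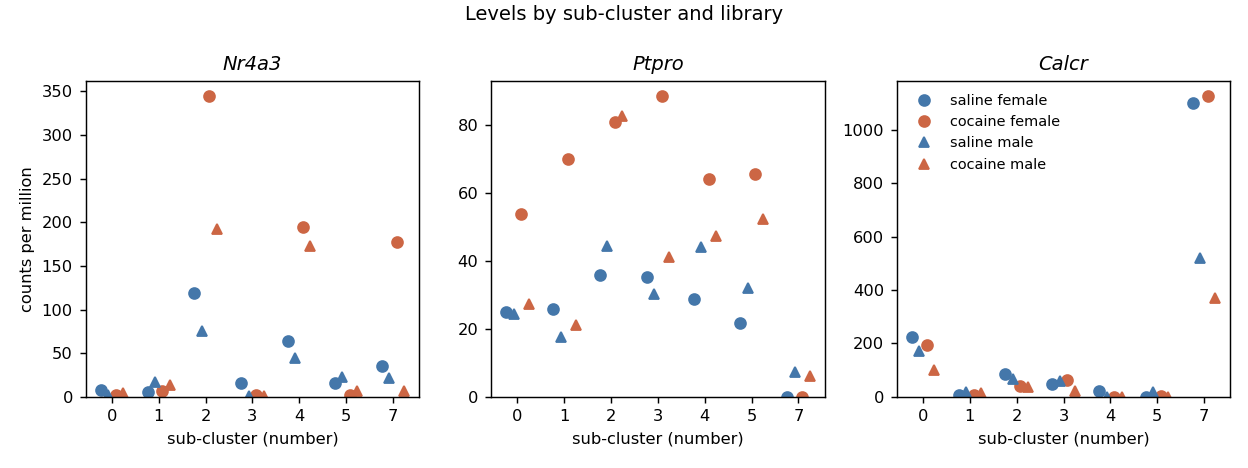
CPM of Nr4a3, Ptpro and Calcr by D2 sub-cluster (numbers on the horizontal axis) and library, on linear axes. Nr4a3 is high and higher with cocaine in both sexes in sub-clusters 2 and 4, Ptpro is higher with cocaine in every sub-cluster from 0 to 5 within each sex, and Calcr is highest in sub-cluster 7.

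Sub-cluster 4 had the most calls, 24 of 7416 genes (0.324%), from 269 nuclei whose leading genes, as given above, go against the D2 name. Nr4a3, Egr4 (2.02, SE 0.44) and Homer1 (0.53, SE 0.13), a postsynaptic scaffold gene with an activity-induced short form, were among the 21 higher. The peptide precursor Tac1 rose there from 38.0 to 128 CPM in females and from 112 to 152 CPM in males, and Penk, a gene of the rule and therefore only described, went from 27.3 to 74.5 and from 42.4 to 87.2 CPM. The transcription factor Foxp2 went from 150 to 197 and from 117 to 360 CPM and Samd5 from 16.7 to 135 and from 32.2 to 83.4 CPM. Samd5 stood at 595 to 1708 CPM in sub-clusters 0, 1, 2, 3 and 5 and Penk at 197 to 929 CPM there, so both are far more abundant in the sub-clusters around sub-cluster 4, and the part of that in their rise was not tested. Sub-cluster 2 had 4 calls of 8602 (0.0465%), all higher, and these were Nr4a3, Ell2 (1.15, SE 0.13), Pkp2 and Ano6. Ell2 there went from 185 to 461 CPM in females and from 167 to 336 CPM in males, whereas in sub-cluster 0 it went from 66.1 to 70.3 and from 59.6 to 79.0 CPM. Sub-cluster 0 had 12 calls of 10158 (0.118%), among them Oasl2, Sap18 and Tnip2 higher and Spag6l lower. Sub-clusters 1 and 3, of 9976 and 7820 genes, had 0 calls each (0%; 589 and 421 at an unadjusted p under 0.05 in edgeR).

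The second comparison asked whether cocaine acted differently on D2 and D1 neurons, by an edgeR quasi-likelihood test of the cocaine effect in D2 minus that in D1 sums with library as a block. Nr4a3 rose less in D2 than in D1 nuclei. Zdbf2, Ubash3b, Shc3 and Elmo1, which rose in D1 nuclei, also had a lower value in D2 nuclei, and the difference was positive for Pcp4, which was lower with cocaine in D1 nuclei. Of 12669 genes tested 8 passed (0.0631%), 1 with a positive and 7 with a negative difference.

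In D1 nuclei Nr4a3 was at 27.7, 176, 20.8 and 101 CPM, so saline levels were near those of D2 nuclei and cocaine levels above them. The log2 fold change was 2.50 (SE 0.15) in D1 nuclei and 1.09 in D2 nuclei, and the difference was -1.40 (SE 0.17; edgeR adjusted p = 0.00035). Its direction held in the 11 alternatives run, but it did not pass with DESeq2 (adjusted p = 0.170), in thinned nuclei (edgeR adjusted p = 0.0814) or without the saline female library (edgeR adjusted p = 0.0665).

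Zdbf2 was at 146 to 167 CPM in all D2 libraries and went from 131 to 301 and from 162 to 252 CPM in D1 nuclei, a difference of -0.82 (SE 0.12; edgeR adjusted p = 0.00186). Shc3, a neuronal adaptor of receptor tyrosine kinases, was at 128, 98.0, 111 and 109 CPM in D2 nuclei and 122, 195, 123 and 169 CPM in D1 nuclei. Ubash3b, a tyrosine phosphatase, differed by -1.36 (SE 0.21) and Elmo1, which activates Rac signalling, by -0.46 (SE 0.075). Pcp4, a calmodulin-binding protein, was at 92.6 and 106 CPM in saline and cocaine female D2 nuclei and 172 and 128 CPM in D1 nuclei, and at 92.6 and 107 CPM in male D2 and 178 and 139 CPM in male D1 nuclei (difference 0.57, SE 0.11; edgeR adjusted p = 0.0333), and did not pass without sub-clusters 4 and 5 (edgeR adjusted p = 0.0906).

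**Figure D5:**
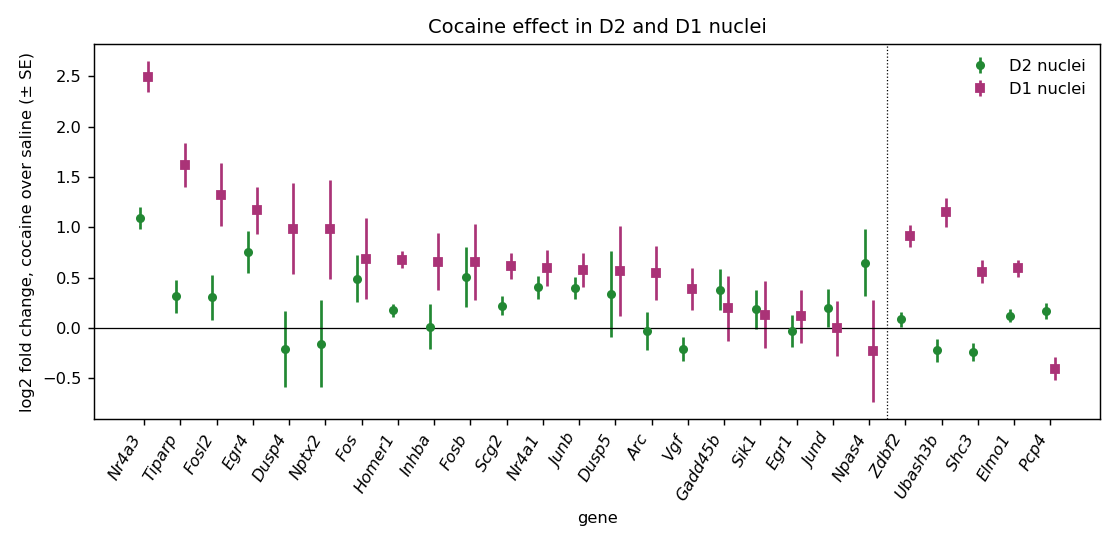
Log2 fold change of cocaine over saline with its standard error in D2 and D1 nuclei, for 21 immediate-early genes fitted in both and, right of the dotted line, 5 further genes whose effect differed between the populations. The D2 value lies below the D1 value for 17 of the 21, and the median difference over all genes tested was 0.004.

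Of the 21 immediate-early genes fitted in both populations 17 had a lower value in D2 than in D1 nuclei, and Nr4a3 alone passed the test of the difference. The median difference over all 12669 genes tested was 0.004. The share of all genes with a lower D2 value was not counted, so the 17 have no such share beside them. Tiparp, a poly-ADP-ribose polymerase, gave 0.31 in D2 and 1.62 in D1 nuclei, but the difference did not pass (-1.27; edgeR adjusted p = 0.132). Homer1 gave 0.17 and 0.68 (difference -0.50; edgeR adjusted p = 0.110). Ell2 gave 0.47 and 0.86 and Nts 0.67 and 2.00, and neither difference passed (edgeR adjusted p = 0.277 and 0.209). D1 sums rested on 255 to 287 nuclei per library.

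The third comparison was male against female D2 nuclei, the sex term of the first fit. Of 12771 genes 78 passed (0.611%), 52 higher and 26 lower in males. The sex-linked genes checked the labels: Kdm5d was at 0.150 and 0.148 CPM in female and at 68.6 and 66.7 CPM in male libraries, Eif2s3y at 0 and 0.148 against 62.0 and 65.0 CPM, and Ddx3 without a UMI in both female libraries against 52.8 and 55.1 CPM. The transcript ENSRNOG00000065796, singled out after its values were seen, was at 189 and 122 CPM in saline and cocaine females and at 0 in males, so its call as lower with cocaine rests on the female libraries alone.

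Several D2 and peptide genes differed by sex. Npas3, a transcription factor gene that led sub-cluster 3, was at 156 and 120 CPM in females and 249 and 205 CPM in males (log2 difference 0.72, SE 0.072; edgeR adjusted p = 2.93e-05). Sub-cluster 3 made up 9.02% and 8.38% of D2 nuclei in the female libraries and 13.4% and 12.8% in the male ones. Calcr was lower in males by a log2 difference of -0.78 (edgeR adjusted p = 0.000399), and so was Nr4a3 (-0.59; edgeR adjusted p = 0.0145). Gpr6 was higher in males (0.45; edgeR adjusted p = 0.0316), as were Nts (0.74) and the peptide precursor Cartpt (0.73). Slc1a2 was higher in males by 1.07, and by 0.14 (edgeR adjusted p = 0.742) without the sub-clusters of other classes. With 1 library per sex and treatment, sex cannot be told apart from anything else that set the male and female pools apart.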

How the data were processed

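Single-nucleus RNA-seq was measured in 4 libraries of rat nucleus accumbens, each a pool of 4 rats. The authors deposited UMI count matrices, 1 per library, of whole numbers without normalization, made with Cell Ranger 6.1.2 per the file headers. The genome build was rn7 per the submitters' processing notes. The annotation version is not given in these sources. RefSeq promoters are of another build, GRCr8, and were matched by symbol.

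The members and gene lists were chosen with earlier results of these data known. Counts were summed per library over D2 nuclei and fitted with edgeR 4.0.16 in R 4.3.3 (TMM scaling, filterByExpr, quasi-likelihood test, treatment and sex as terms, Benjamini-Hochberg over all genes tested at 0.05), so each gene has 1 residual degree of freedom before edgeR's moderation. SE is the log2 fold change over the square root of F. DESeq2 1.42.0 was an alternative. The code was tested on simulated data. Doublets were called with Scrublet in scanpy 1.11.5, marking the highest 0.8% of scores per 1000 nuclei, and were kept in the main values. Sub-clusters came from 2000 variable genes scaled within library, 20 principal components, 15 neighbours and Leiden (leidenalg 0.10.2) at resolution 0.4. D2 sums held 6654059 to 6818716 UMIs per library. A total of 11 of 308 list genes, which matched no symbol in the files, were not used.

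Genes were named by rule: the rule genes and given markers, list members, up to 15 higher and 15 lower called genes with a symbol and 1 sign in both sexes, up to 5 called sex genes, up to 5 per direction of the D2 against D1 test, 15 genes each by D2 over D1 ratio and by variance over mean, and up to 5 leading genes of a sub-cluster. Genes named from fits within sub-clusters were chosen after their values were seen. Alternatives covered scaling, filtering, DESeq2, doublets, a marker sum of 10, thinning to 3000 UMIs, dropping the sex term and leaving out each library. There was 1 pool per sex and treatment, so the edgeR p-values do not measure the spread between pools of the same condition. In the main fit they rest on how the cocaine effect differs between the sexes, moderated across genes with 15.7 prior degrees of freedom.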

Additional observations from a re-analysis of the deposited data

Results flagged for a closer look

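The cocaine effect differed between D2 and D1 nuclei, by the edgeR test of the difference itself, for 6 genes with a symbol. The effect in D2 minus that in D1 nuclei was -1.40 on the log2 scale for Nr4a3, -0.82 for Zdbf2, -1.36 for Ubash3b, -0.80 for Shc3 and -0.46 for Elmo1, and 0.57 for Pcp4. All 6 kept their direction under the alternatives run. With DESeq2 none of the 6 passed.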

How the results depend on the processing

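With 1 residual degree of freedom per gene, the number of genes called moved with most settings, and the cause was not tested. The 20 genes of the cocaine comparison became 61 with DESeq2's size factors in edgeR, 44 without the filter, 47 with doublets removed, 11 at a marker sum of 10, 30 in thinned nuclei, 0 without the sex term and 0 with DESeq2. Chosen after seeing the data, leaving out sub-clusters of other classes gave 111, and also drawing the remaining sub-clusters in equal numbers gave 70. Leaving out sub-clusters 4 and 5 instead, likewise chosen after seeing the data, gave 99. Of the 17 named genes, 8 were called in thinned nuclei, without Mfsd10, Nts, RT1-T24-1, Tnip2, Zmat4, Sox6, Kcnip1, Gng2 and Atp2b4. At a marker sum of 10 another set of 8 was called, without Oasl2, Mfsd10, RT1-T24-1, Tnip2, Ptpro, Gpc5, Slc1a2, Gng2 and Calcr. Leaving out 1 library at a time, with the sex term dropped, gave 0 to 103, and the count was 0 when either cocaine library was dropped, 65 when the female saline library was and 103 when the male saline library was. The 78 sex genes became 187, 138, 142 and 41 under the first 4 of these settings, 10 with DESeq2, 270, 141 and 273 in the 3 sub-cluster settings and 19 to 140 with 1 library left out. The 8 genes of the D2 against D1 test became 44 without the filter, 16 with doublets removed, 1 in thinned nuclei, 0 with DESeq2 and 3 to 72 with 1 library left out. The mean D2 share of 12.3% became 7.90% at a marker sum of 10 and 7.78% in thinned nuclei.

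Of the single genes, Nts went to -0.023 with sub-clusters in equal numbers. Sox6 went to 0.36 without sub-clusters of other classes and to 0.24 with equal numbers, a setting that also leaves those sub-clusters out. Slc1a2 ranged from -1.264 to 0.006 with 1 library and the sex term left out, the latter without the male saline library. Over all named genes and settings, the same call was kept 234 times, lost in the same direction 131 times and reversed in sign 4 times. These counts pool the cocaine, sex and D2 against D1 comparisons. In the sex comparison Kdm5d, Eif2s3y and Ddx3 kept their call 13 times each. In the cocaine comparison Nr4a3 and Sap18 kept it most often, 10 times each, and Gpc5 and Slc1a2 least often, 5 times each. The labels carry no replicate numbers, and the main fit, with sex as a term, sets cocaine against saline within each sex.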
